A study of Mus musculus with 6 samples.

Results

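The genes described here are those of arginase and polyamine metabolism: Arg1, Arg2, Odc1, Amd1, Srm, Sms, Sat1, Oaz1, Oaz2 and Azin1. They were chosen by name, by matching the Ensembl identifiers of the count table to gene symbols, and all 10 were found among 55401 identifiers, each on 1 row. The libraries were made from small-intestinal lamina propria group 3 innate lymphoid cells (ILC3s), lymphocytes without antigen receptors that release interleukin 22 at mucosal surfaces. All 6 libraries came from wild-type mice, 3 with the treatment label Vehicle and 3 with PEox, an abbreviation the labels do not spell out and which in work on ferroptosis usually means an oxidised phosphatidylethanolamine. Dose, duration, route and age are absent from the sources used here, and the protocol speaks only of pretreatment. The protocol text speaks of sorted epithelial cells of pups, which differs from the ILC3 label of each library.

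Polyamines are small positively charged molecules that bind RNA and DNA and are needed for growth and translation. Arginase splits arginine into urea and ornithine, ornithine decarboxylase (ODC, from Odc1) turns ornithine into putrescine, and the aminopropyl donor made by S-adenosylmethionine decarboxylase (from Amd1) lets spermidine synthase (Srm) and spermine synthase (Sms) extend the chain. The enzyme from Sat1 acetylates spermidine and spermine for export or breakdown, the antizymes from Oaz1 and Oaz2 bind ODC and send it to the proteasome, and the antizyme inhibitor from Azin1 binds antizyme and frees ODC. Arg1 is known as a gene of group 2 innate lymphoid cells, of some ILC3s and of macrophages.

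Antizyme is made only when ribosomes skip a base at a stop codon inside the coding sequence, a step that polyamines promote. The stretches below, from GENCODE release M21 transcripts of the mouse, show that site in capitals (the last codon of the first reading frame and the stop codon), because the counts of Oaz1 and Oaz2 mRNA do not read this step. They were read from intron-retaining transcripts that hold the site unbroken, which were not used for transcript lengths.
Oaz1: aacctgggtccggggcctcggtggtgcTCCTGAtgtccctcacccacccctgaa
Oaz2: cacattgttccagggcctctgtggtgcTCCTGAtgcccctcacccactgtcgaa
Of the 54 bases shown, 43 (79.6%) were identical between both genes.

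Genes that make ornithine, putrescine and spermidine were lower in PEox libraries, while the donor enzyme, the acetylating enzyme and the antizyme inhibitor were higher. In CPM (a gene's counts scaled to library size, here with TMM factors, which adjust for differences in library composition), Arg1 fell 2.57-fold, Srm 2.08-fold, Odc1 2.04-fold and Oaz1 1.46-fold. Amd1 rose 1.77-fold, Sat1 1.38-fold and Azin1 1.33-fold. Arg2, Sms and Oaz2 did not pass the test. Calls are at an adjusted p under 0.05 by edgeR's quasi-likelihood test with Benjamini-Hochberg adjustment over 18253 genes. All 10 genes passed the low count filter, 7 of them were called, 4 lower and 3 higher. Of all tested genes 37.1% were called, 18.3% higher and 18.8% lower. The called share of all genes depends on their level: in a fit on genes of at least 5 CPM in 3 libraries it was 60.6%, and 7 of the 9 arginase and polyamine genes in that fit were called. The groups did not overlap for 8 of the 10 genes, against 50.6% of all tested genes. The median log2 fold change of the 10 genes was -0.13, and that of all tested genes was 0.00 with quartiles of -0.51 and 0.47.

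**Figure D1:**
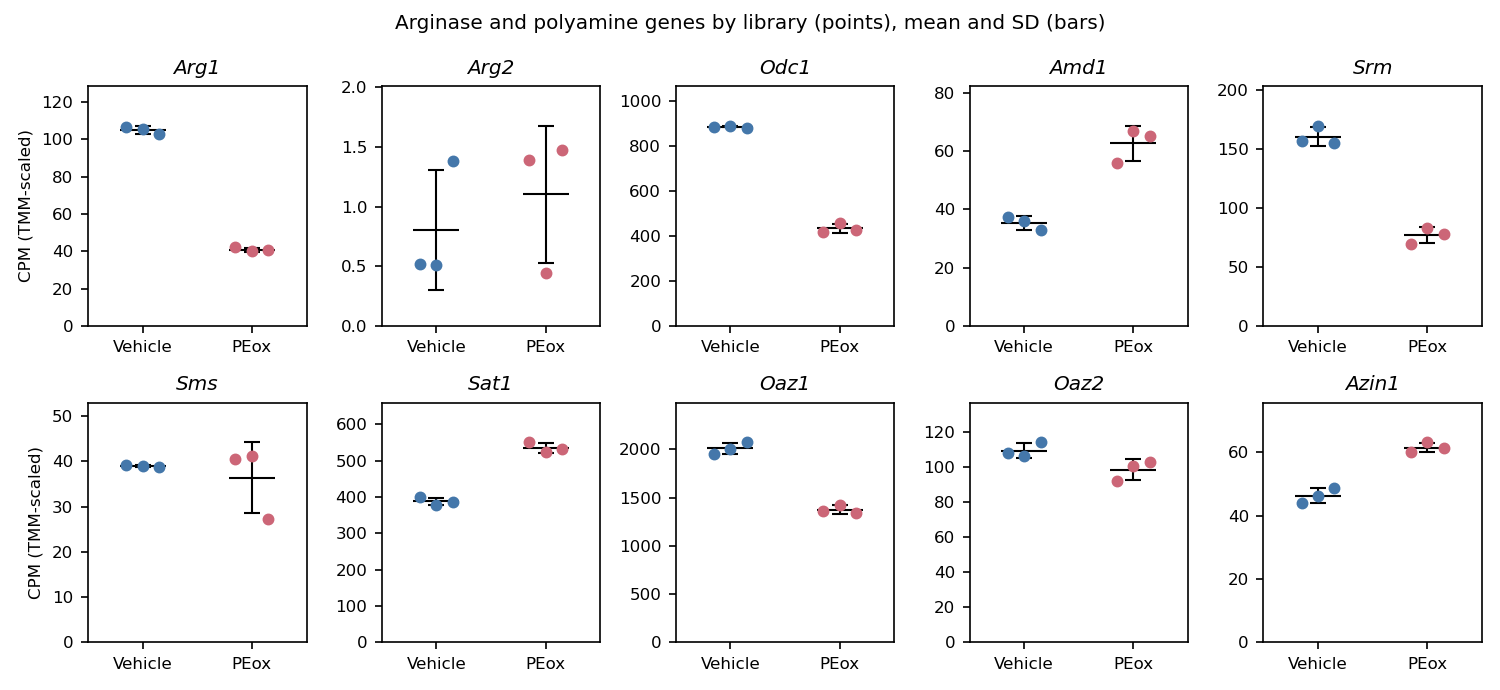
CPM (vertical axes, each from 0) of the 10 genes in each of 3 vehicle and 3 PEox libraries (points), with the mean and SD (bars). The groups lie apart for Arg1, Odc1, Amd1, Srm, Sat1, Oaz1, Oaz2 and Azin1, and overlap for Arg2 and Sms.

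Total counts lay between 56252806 and 66849230 per library, and no label ties a library to an animal of its own, so the p-values reflect only the spread among these libraries, which may be technical. Of 14 ILC3 marker genes none was at 0. Among them 7 fell, 2 rose and 5 did not pass. They summed to 15203 to 15589 CPM in vehicle and 8446 to 8577 in PEox. Il22 (6724 to 2513) and Id2 (3004 to 1684) held most of the vehicle sum, but not most of the PEox sum. Tmem176a (1043 to 285), Tmem176b (1554 to 683), Ccr6 (356 to 147), Thy1 (131 to 45.4) and Gata3 (384 to 301) fell as well. Il17f (589 to 992) and Kit (223 to 418) rose, and Il23r, Il1r1, Rora, Ahr and Il7r did not pass. Epithelial markers summed to 106 to 120.1 CPM in vehicle and 74.7 to 76.3 in PEox, with Cdx2 at 0 and Epcam at 52.2 and 31.9 on average. B cell markers summed to 270.2 to 292 against 40.1 to 44.1 CPM (7 of 8 lower), and mast cell and basophil markers to 156 to 164 against 24.9 to 31.1 (5 of 8 lower). T cell markers summed to 106 to 118 against 43.3 to 56.1, with 5 of 8 lower, Trac and Cd5 not passing and Cd4 higher (8.46 to 14.8). Erythroid markers summed to 2755 to 2802 against 5121 to 5808, with 5 of 8 higher. The fibroblast matrix genes Col1a1, Col1a2, Col3a1 and Dcn rose (Col1a1 from 37.8 to 91.3). The endothelial gene Pecam1 (77.0 and 92.1) and Pdgfra (6.17 and 6.18) did not pass. Cdh5 and Kdr were hardly detected in vehicle (means of 0.0445 and 0.126 CPM), were at 0 in PEox and were not tested. Dendritic cell markers summed to 177 to 184 against 109 to 124, with 3 of 6 tested lower and none higher. Neutrophil markers summed to 17.9 to 75.5 against 24.3 to 95.7, with 3 of 10 tested lower and none higher. The part of these cell types in the results below was not tested, except where a value is given. In bulk RNA, fewer cells of a type and less RNA per cell cannot be told apart. Scaling by library size alone moved the median log2 fold change of all genes to 0.14 and the share of called genes that were higher from 49.3% to 61.9%. Removing each library's trend on transcript length and GC content moved them to 0.14 and 62.5%. Fold changes given below for either setting include this shift unless they are given relative to the median.

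Arg1, which encodes the cytosolic arginase, was measured at 107, 106 and 103 CPM in vehicle libraries 1 to 3 and at 42.1, 39.9 and 40.4 CPM in PEox libraries 1 to 3. All PEox libraries lay far under all vehicle libraries, and the spread within each group was small. The means were 105 ± 2.11 CPM and 40.8 ± 1.15 CPM (SD, n = 3 per group), a log2 fold change of -1.36 ± 0.06 (SE, with adjusted p by edgeR = 3.21e-06). Leaving out each library in turn kept it between -1.39 and -1.35.

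Because macrophages and group 2 innate lymphoid cells (ILC2s) also express Arg1, their markers were measured in the same libraries. The 16 macrophage and monocyte markers together summed to 222 to 235 CPM in vehicle and 100.4 to 128 CPM in PEox. Of 15 tested, 7 fell, none rose and 8 did not pass. Lyz2, the lysozyme gene, held 111 CPM of the vehicle sum and 51.0 CPM of the PEox sum. The complement genes of tissue macrophages fell, from 15.8 to 4.68 CPM for C1qa (log2 change -1.76), from 16.3 to 5.28 for C1qb (-1.63) and from 17.3 to 7.32 for C1qc (-1.24). Ly6c2, a monocyte gene, fell from 6.64 to 1.11 CPM (-2.58), and Cd68 and Cx3cr1 also fell. Among the 8 that did not pass were Adgre1 (6.66 and 6.02 CPM in vehicle and PEox), Cd14 (8.45 and 10.6) and Chil3 (1.99 and 2.42). Csf1r, the macrophage growth factor receptor gene, lay at 10.5 and 9.47 CPM, Mrc1 at 0.924 and 0.63 CPM and Retnla, a gene of alternatively activated macrophages, at 0 in all vehicle libraries. The 12 ILC2 markers summed to 195 to 215 CPM in vehicle and 154 to 161 CPM in PEox, with 3 of 9 tested lower, 1 higher and 5 not passing. Most of that sum lay in Il17rb, which fell from 110.3 to 80.7 CPM, and Il1rl1, the interleukin 33 receptor gene, which fell from 43.3 to 28.7. Klrg1 fell from 4.03 to 0.795 CPM, and Hpgds rose from 15.2 to 21.1. The ILC2 cytokine gene Il9 was at 0 in all 6 libraries, and Il13 at 0.021 CPM in vehicle and at 0 in PEox. What part of the fall of Arg1 moved with these cells was not tested. A count of 0 allows up to 3 counts, or 0.0472 to 0.0529 CPM in these libraries, for counting error only.

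Arg2, the mitochondrial arginase gene, was hardly detected. It had 33, 29 and 87 counts in vehicle and 82, 26 and 89 counts in PEox, or 0.519, 0.511 and 1.38 CPM against 1.39, 0.44 and 1.47 CPM. Vehicle library 3 and PEox libraries 1 and 3 were the high ones, so the groups overlapped. The log2 fold change was 0.45 ± 0.65 (SE, with adjusted p by edgeR = 0.652), and it was 1.09 without vehicle library 3 (adjusted p by edgeR = 0.338), so no change of Arg2 was detectable against the spread between libraries. Arg1 and Arg2 transcripts are of nearly the same length (1477 and 1428 bases). The ratio of Arg1 to Arg2 CPM was 206, 207 and 74.3 in vehicle and 30.2, 90.8 and 27.5 in PEox.

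Odc1, which encodes the first and rate-limiting enzyme of polyamine synthesis, was measured at 885, 887 and 881 CPM in vehicle and at 419, 455 and 426 CPM in PEox. The highest PEox library lay well under the lowest vehicle library. Means were 884 ± 3.27 and 433 ± 19.1 CPM (SD, n = 3 per group), with a log2 fold change of -1.03 ± 0.04 (SE, with adjusted p by edgeR = 2e-06). Over left-out libraries it ran from -1.07 to -1.01.

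Besides Odc1, Srm and Amd1 act in the synthesis of spermidine from ornithine, and they moved in opposite directions. Srm, the spermidine synthase gene, was measured at 157, 169.8 and 156 CPM in vehicle and 69.5, 83.4 and 78.3 CPM in PEox, with no overlap. Its log2 fold change was -1.06 ± 0.08 (SE, with adjusted p by edgeR = 3e-05). With the length and GC trend removed it was -0.76, or -0.64 when the longest protein-coding transcript gave the length in place of the median one, and it was called in both. Relative to the median of all genes these values were -0.90 and -0.78. Amd1, which makes the aminopropyl donor, was measured at 37.3, 35.9 and 32.8 CPM in vehicle and at 55.9, 67 and 65.3 CPM in PEox. Every PEox library was above every vehicle library, and the log2 fold change was 0.83 ± 0.10 (SE, with adjusted p by edgeR = 0.000332).

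Reads of Amd1 may be shared with Amd2, a near-identical copy. Amd2 rose as well, from 6.36 ± 0.34 to 9.57 ± 0.70 CPM (SD, n = 3 per group; log2 fold change 0.59, adjusted p by edgeR = 0.0211), a call lost without vehicle library 1, 2 or 3 (adjusted p = 0.0756, 0.0535 and 0.0658, in that order). With counts of both added, Amd1 stood at 0.80 (adjusted p by edgeR = 0.000266). Sms, the spermine synthase gene, was measured at 39.3, 39.0 and 38.9 CPM in vehicle and at 40.7, 41.1 and 27.4 CPM in PEox. PEox library 3 was the low one and the other PEox libraries were slightly above vehicle. Its log2 fold change was -0.10 ± 0.15 (SE, with adjusted p by edgeR = 0.667), and it turned to 0.07 without PEox library 3 (adjusted p by edgeR = 0.597). The processed pseudogene Sms-ps held 18.4 ± 0.47 CPM in vehicle and 17.5 ± 1.81 CPM in PEox (SD, n = 3 per group), so the level of Sms is uncertain.

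Sat1, which encodes the acetyltransferase that starts polyamine export and breakdown, was measured at 399, 379 and 386 CPM in vehicle and at 550.1, 523 and 532 CPM in PEox. The groups lay apart, and the log2 fold change was 0.46 ± 0.04 (SE, with adjusted p by edgeR = 7.83e-05). With the length and GC trend removed it was 0.70, or 0.80 with the longest transcript. Relative to the median of all genes these values were 0.56 and 0.66. The genes of 2 polyamine oxidases, Smox and Paox, went the other way. Smox, the spermine oxidase gene, was measured at 795, 781 and 783 CPM in vehicle and at 486, 514 and 505 CPM in PEox. It fell by 0.65 on the log2 scale (adjusted p by edgeR = 9.92e-06), or by 0.40 once the trend was removed (adjusted p by edgeR = 0.000176). Paox, whose enzyme oxidises acetylated polyamines, fell from 24.9 ± 2.26 to 16.6 ± 2.01 CPM (SD, n = 3 per group; adjusted p by edgeR = 0.0094). With the trend removed it was not called by the median length (log2 fold change -0.28, adjusted p = 0.155) but was by the longest (-0.69, adjusted p = 0.00415).

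Oaz1, the main antizyme gene, had the highest level of the 10, in CPM and per length. It was measured at 1956, 2008 and 2071 CPM in vehicle and at 1357, 1426 and 1342 CPM in PEox, without overlap. Its log2 fold change was -0.55 ± 0.04 (SE, with adjusted p by edgeR = 2.32e-05). That call depended on transcript length and base composition: with the trend removed the value was -0.11 (adjusted p by edgeR = 0.0611), or -0.06 with the longest protein-coding transcript (adjusted p = 0.255), against a median of 0.14 over all genes in each. The pseudogene Oaz1-ps fell beside it, from 83.9 ± 10.5 to 54.8 ± 1.60 CPM (SD, n = 3 per group), and reads of both cannot be told apart with certainty. Oaz2, the second antizyme gene, was measured at 108, 106 and 114 CPM in vehicle and at 91.7, 101 and 103 CPM in PEox. The groups did not overlap but lay close, and the log2 fold change of -0.15 ± 0.07 (SE, with adjusted p by edgeR = 0.115) did not pass. With the trend removed it turned to 0.09 (adjusted p by edgeR = 0.338), which is -0.05 relative to the median of all genes.

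Azin1, the antizyme inhibitor gene, was measured at 43.9, 46.2 and 48.6 CPM in vehicle and at 60.2, 63.2 and 61.3 CPM in PEox. Each PEox library was above each vehicle library, and the log2 fold change was 0.41 ± 0.07 (SE, with adjusted p by edgeR = 0.00298). With the length and GC trend removed it was 0.42, or 0.33 with the longest transcript, and it was called in both. Relative to the median of all genes these values were 0.28 and 0.19. ODC and its regulators were also set side by side within each library. The ratio of Odc1 to Oaz1 CPM was 0.452, 0.442 and 0.425 in vehicle and 0.309, 0.319 and 0.317 in PEox. Odc1 to Azin1 stood at 20.1, 19.2 and 18.1 in vehicle and at 6.96, 7.20 and 6.95 in PEox. Both ratios were lower in every PEox library. They are not per length, so only their change between libraries can be read, and 3 libraries against 3 cannot reach a two-sided exact permutation p under 0.1. The length and GC trend was not removed from the ratios, and the size of the change in Odc1 to Oaz1 depends on it. With the trend removed Odc1 moved only from -1.03 to -0.95 on the log2 scale, and Oaz1 from -0.55 to -0.11.

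**Figure D2:**
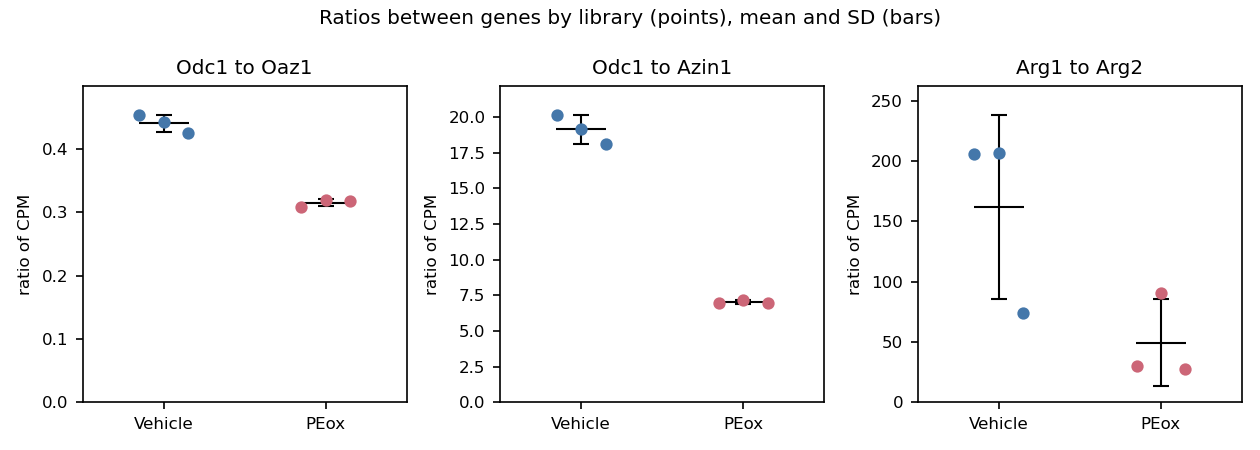
Ratios of CPM (vertical axes, each from 0) of Odc1 to Oaz1, Odc1 to Azin1 and Arg1 to Arg2 in each of 3 vehicle and 3 PEox libraries (points), with the mean and SD (bars). The first ratio went from 0.44 to 0.315 and the second from 19.1 to 7.04 on average without overlap, while the third overlapped.

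**Figure D3:**
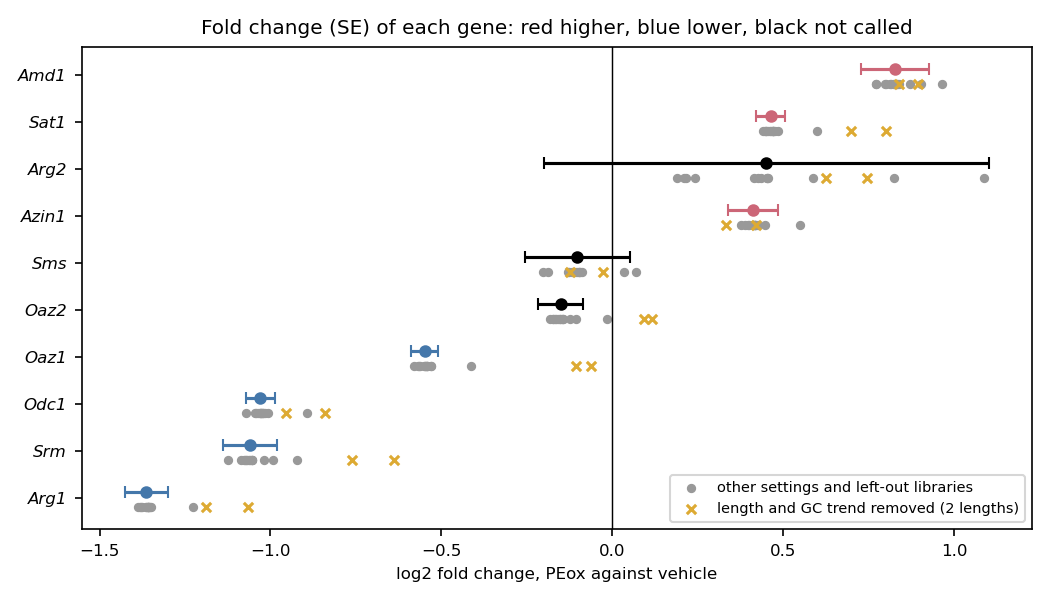
Log2 fold change of PEox against vehicle with its SE (large points) for the 10 genes, with the values under other settings and without each library (grey) and after removal of the length and GC trend (crosses). The crosses of Oaz1 lie at -0.11 and -0.06, far from the main value of -0.55, while those of Arg1, Odc1 and Srm stay under -0.6.

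Levels were compared between genes per kilobase of transcript, with the median length of a gene's protein-coding transcripts. In vehicle the order ran from Oaz1 (2771 ± 79.6 CPM per kilobase, SD, n = 3) through Odc1 (400.4 ± 1.48), Sat1 (377 ± 10.1), Srm (120.1 ± 5.92), Oaz2 (80.8 ± 3.05) and Arg1 (71.1 ± 1.43) to Sms (19.3 ± 0.11), Azin1 (18.6 ± 0.95), Amd1 (18.0 ± 1.19) and Arg2 (0.563 ± 0.351). Values of Sms and Azin1 overlapped between libraries, as did those of Azin1 and Amd1. In PEox, Sat1 (520 ± 13.6 CPM per kilobase, SD, n = 3) stood above Odc1 (196 ± 8.65), and Oaz2 (72.8 ± 4.37) above Srm (57.6 ± 5.24). Amd1 (32.0 ± 3.05) and Arg1 (27.7 ± 0.78) overlapped there, followed by Azin1 (24.8 ± 0.60) and Sms (18.0 ± 3.87). With the longest protein-coding transcript as the length, Oaz1 still ranked first and Odc1 and Sat1 still changed places, but other orders turned. In vehicle Arg1 (71.1 CPM per kilobase) then lay above Oaz2 (59.3), and Amd1 (11) above Sms (10.5) and Azin1 (9.50), though values of Amd1 and Sms overlapped between libraries. In PEox Oaz2 (53.4) lay below Srm (57.6) with overlap between libraries, and Amd1 (19.6) below Arg1 (27.7) without overlap.

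Promoter sequences were taken from RefSeq on build GRCm38.p6 as windows of 300 bases, 250 before and 50 after the start of the gene. The table held 7 windows for 6 of the genes: Odc1, Amd1, Sat1, Oaz1, Oaz2 and Sms, the last with 2. The windows of Odc1 and Oaz1, which fell, and of Amd1 and Sat1, which rose, are shown to set genes of opposite change side by side, with motif matches in capitals.
Odc1, chr12:17544623-17544922, plus strand: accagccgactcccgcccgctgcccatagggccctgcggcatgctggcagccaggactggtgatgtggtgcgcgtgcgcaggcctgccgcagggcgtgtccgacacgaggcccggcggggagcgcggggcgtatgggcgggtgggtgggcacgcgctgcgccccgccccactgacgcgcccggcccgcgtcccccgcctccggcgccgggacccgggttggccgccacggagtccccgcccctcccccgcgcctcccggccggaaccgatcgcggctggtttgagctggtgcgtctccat
Oaz1, chr10:80826406-80826705, plus strand: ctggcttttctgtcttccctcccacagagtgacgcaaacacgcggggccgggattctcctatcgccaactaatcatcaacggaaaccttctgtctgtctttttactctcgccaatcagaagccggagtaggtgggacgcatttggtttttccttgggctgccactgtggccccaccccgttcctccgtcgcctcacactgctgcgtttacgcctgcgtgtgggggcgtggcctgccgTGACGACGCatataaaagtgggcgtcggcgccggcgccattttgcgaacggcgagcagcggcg
Amd1, chr10:40302139-40302438, minus strand: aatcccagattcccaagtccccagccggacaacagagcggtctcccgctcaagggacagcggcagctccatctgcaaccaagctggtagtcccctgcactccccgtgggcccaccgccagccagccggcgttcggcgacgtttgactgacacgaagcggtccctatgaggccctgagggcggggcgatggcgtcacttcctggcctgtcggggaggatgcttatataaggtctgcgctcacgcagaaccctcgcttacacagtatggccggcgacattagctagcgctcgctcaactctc
Sat1, chrX:155216400-155216699, minus strand: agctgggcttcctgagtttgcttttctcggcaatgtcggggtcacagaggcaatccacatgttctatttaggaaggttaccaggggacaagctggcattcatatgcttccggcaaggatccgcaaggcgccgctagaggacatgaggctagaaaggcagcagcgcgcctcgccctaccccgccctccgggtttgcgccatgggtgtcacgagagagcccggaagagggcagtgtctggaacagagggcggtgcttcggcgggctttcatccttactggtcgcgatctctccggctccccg
The motifs searched on both strands were CACGTG, the E-box known to be bound by MYC, and TGACNNNGC, the core of the antioxidant response element known to be bound by NRF2. Each matched in 1 of the 7 windows, and no window held both. TGACNNNGC began 13 bases before the start of Oaz1, and CACGTG lay in 1 window of Sms. Over all 32851 windows of the table, 7.15% held CACGTG and 12.4% held TGACNNNGC. The windows shown were rich in CG dinucleotides, with 42 in Odc1, 29 in Oaz1, 24 in Amd1 and 21 in Sat1, where the median window held 7 and the upper quartile was 20.

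Genes that use or supply polyamines were then counted in lists. Of all tested genes 37.1% were called, and 60.6% in the fit on genes of at least 5 CPM in 3 libraries. The called shares were 40% for other polyamine genes, 40% for arginine uptake and 43.75% for other arginine and ornithine enzymes. They were 60% for the methionine cycle, 72.7% for the MYC network and 100% for hypusination. Of 13 other polyamine genes 10 were tested, of which 2 fell (Smox and Paox), 2 rose and 6 did not pass, with a median log2 fold change of 0.46. Among those not passing, Oaz3, Sat2, Slc18b1 and Slc22a3 had means of at most 1.02 CPM in either group. Besides Amd2, the lysosomal polyamine exporter gene Atp13a2 rose from 14.2 ± 1.67 to 25.7 ± 8.0 CPM (SD, n = 3 per group; adjusted p by edgeR = 0.0212). This call was lost without vehicle library 1 or 3 (adjusted p = 0.0852 and 0.0796) and without PEox library 1 or 3 (0.0674 and 0.0647).

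Spermidine is the source of hypusine, a modified lysine on the translation factor eIF5A. All 4 genes of this step were called, with 3 lower and 1 higher and a median of -0.43. The gene that rose, Eif5a2, encodes a second form of the factor and went from 2.17 ± 0.53 to 4.32 ± 0.56 CPM (SD, n = 3 per group; adjusted p by edgeR = 0.0234). It was named after its values were seen. Eif5a, which encodes the factor, was measured at 2111, 2121 and 2229 CPM in vehicle and 1249, 1255 and 1218 CPM in PEox, and fell by 0.80 on the log2 scale (adjusted p by edgeR = 2.9e-06). With the length and GC trend removed it was -0.53, or -0.43 with the longest transcript. Dhps, whose enzyme performs the first step from spermidine, fell from 42.1 ± 2.55 to 27.4 ± 1.39 CPM (SD, n = 3 per group). With the trend removed it was at -0.35 by the median length (adjusted p = 0.0173) and not called by the longest (-0.21, adjusted p = 0.117). Dohh, which completes hypusine, went from 74.4 ± 3.85 to 63.5 ± 1.16 CPM (SD, n = 3 per group; log2 fold change -0.23, adjusted p by edgeR = 0.0293). Its call was lost under library size scaling (-0.09), and without vehicle library 1 or 3 or PEox library 2 or 3 (adjusted p = 0.0838, 0.101, 0.0687 and 0.058). Its sign turned with the trend removed (0.16, against a median of 0.14 over all genes).

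The methionine cycle makes the S-adenosylmethionine that the enzyme from Amd1 consumes, and salvages the methylthioadenosine that spermidine and spermine synthesis release. Of 10 tested genes 5 fell, 1 rose and 4 did not pass, with a median of -0.29. The salvage genes Mtap, Mri1, Apip and Enoph1 fell by 0.66, by 0.64, by 0.62 and by 0.56 on the log2 scale. Mtap, the phosphorylase at the head of this route, was measured at 59.4, 65.1 and 65.4 CPM in vehicle and 36.6, 48.2 and 35.1 CPM in PEox (adjusted p by edgeR = 0.00396). Apip stood at -0.32 with the trend removed by the median length (adjusted p = 0.0474) and was not called by the longest (-0.16, adjusted p = 0.314). Enoph1 was not called with the trend removed (-0.38 by the median length and -0.30 by the longest, adjusted p = 0.0726 and 0.144) or without any 1 vehicle library (adjusted p from 0.0525 to 0.055). Mat2a, the S-adenosylmethionine synthase gene, lay at 367 ± 20.4 and 325 ± 4.11 CPM (SD, n = 3 per group; log2 fold change -0.18, adjusted p by edgeR = 0.0262). It was not called under library size scaling (-0.04) or with the trend removed by the median length (-0.01), though it was by the longest (-0.17, adjusted p = 0.0147), nor without vehicle library 2 or 3 or PEox library 1 or 2 (adjusted p = 0.117, 0.0762, 0.07 and 0.0501). Mtrr, which keeps methionine synthase active, rose by 0.95 (adjusted p by edgeR = 0.00078).

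Arginine uptake genes had 2 of 5 tested lower, none higher and a median of -0.64, which is the value of Slc7a1. Slc7a2 (0.826 and 0.445 CPM on average in vehicle and PEox), Slc7a3 (1.82 and 2.29) and Slc7a7 (1.72 and 1.02) were low and did not pass. Slc7a1, the main cationic amino acid transporter gene, was measured at 69.4, 74.5 and 70.3 CPM in vehicle and 39.6, 47.1 and 50.9 CPM in PEox, a log2 fold change of -0.64 ± 0.10 (SE, with adjusted p by edgeR = 0.00153). With the trend removed it was -0.35 by the median length (adjusted p = 0.033) and -0.85 by the longest. Slc7a6, an exchanger subunit gene, fell by 0.40 (adjusted p by edgeR = 0.00136) and stood at 0.05 with the trend removed and at -0.44 with the longest transcript. Nos2, whose enzyme competes with arginase for arginine, was at 0 in vehicle library 1 and all PEox libraries and at 0.458 and 0.238 CPM in vehicle libraries 2 and 3, and was not tested.

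Among 16 other tested arginine and ornithine enzymes, 5 fell, 2 rose and 9 did not pass, with a median of -0.24. Both genes that rose act between glutamate, proline and ornithine: Aldh18a1, which makes the precursor of proline and ornithine, rose by 0.57 (adjusted p by edgeR = 0.00243, and by 1.11 with the trend removed by the median length) and Aldh4a1 by 0.71 (adjusted p by edgeR = 0.00563). Prodh and Pycr1, enzymes of proline breakdown and synthesis, fell by 1.14 and by 1.01 from low levels of 11.4 and 7.93 CPM. Ddah1 fell from 6.74 ± 1.06 to 1.37 ± 0.99 CPM (SD, n = 3 per group). With the trend removed by the median length Prodh (-0.69, adjusted p by edgeR = 0.0645) and Pycr1 (-0.63, adjusted p = 0.0772) were not called, while by the longest both were (-0.97 and -0.93, adjusted p = 0.0219 and 0.0211). Pycr1 was also not called without vehicle library 1 (adjusted p = 0.0577). Oat, which converts ornithine towards proline, lay at the threshold (log2 fold change -0.21, adjusted p by edgeR = 0.0499). It missed it under 7 other settings, RLE scaling among them (adjusted p = 0.0562), and without vehicle library 1 or 2 or PEox library 1 or 3 (adjusted p = 0.167, 0.159, 0.144 and 0.112).

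The transcription factor MYC is known to bind the Odc1 gene, so genes of its network were read in the same libraries. Of 11 tested, 5 fell, 3 rose and 3 did not pass, with a median of -0.13. Myc was measured at 133, 116 and 101 CPM in vehicle and 57.3, 64.0 and 70.3 CPM in PEox, a log2 fold change of -0.87 ± 0.11 (SE, with adjusted p by edgeR = 0.000535). Mycn fell by 0.78 (adjusted p by edgeR = 0.0102, or 0.053 without vehicle library 2). Mxd1 and Mxi1, whose proteins oppose MYC at E-boxes, rose by 0.62 and 0.59, the latter not called with the trend removed by the longest transcript (adjusted p = 0.0757) or without vehicle library 1 or 3 or PEox library 1 (adjusted p = 0.0588, 0.0668 and 0.0718). Mxd3, a gene of the same family known from dividing cells, fell from 12.2 ± 3.21 to 0.702 ± 0.456 CPM (SD, n = 3 per group). Mga, Mlxip (-0.55 with the trend removed by the longest length) and Mnt were called at 0.39, -0.34 and -1.02, and each lost its call without at least 1 library. Mga also lost it with the trend removed (0.23 and 0.21 by the median and the longest length), Mnt by the median length (-0.94) but not by the longest (-1.09), and Mlxip and Mnt under library size scaling (-0.20 and -0.88). For Mga the call went without any vehicle library or without PEox library 1 or 3 (adjusted p from 0.0637 to 0.0919), and for Mlxip without vehicle library 2 or 3 or PEox library 1 or 2 (0.0685 to 0.114). For Mnt it went without any vehicle library or without PEox library 1 or 3 (0.0518 to 0.146).

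**Figure D4:**
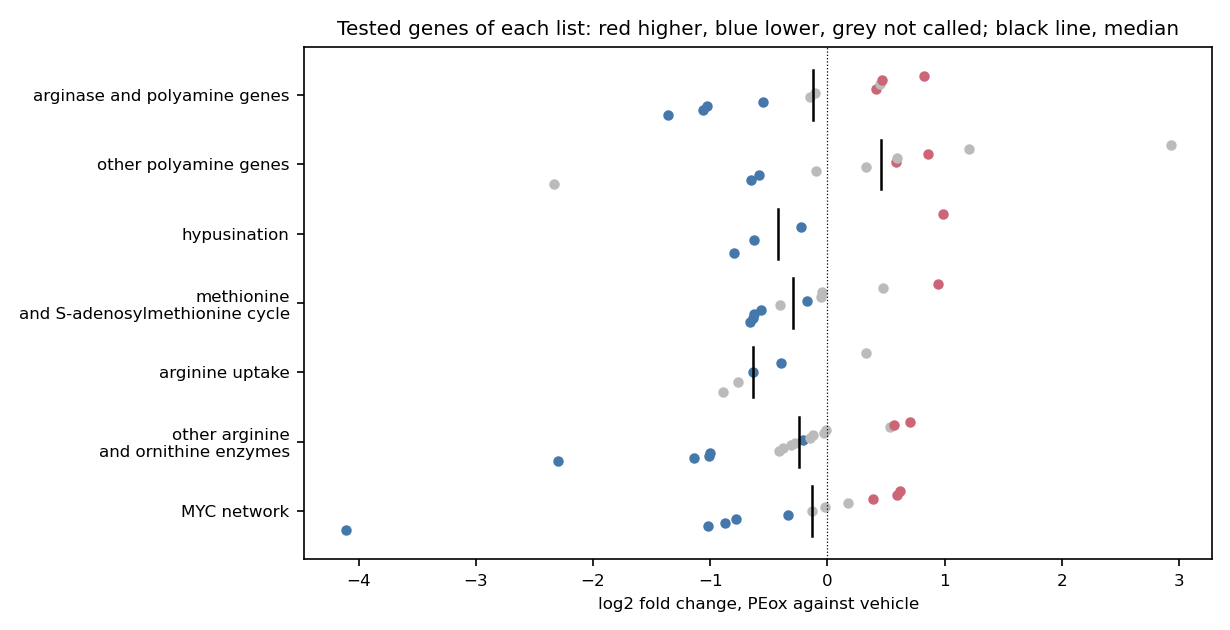
Log2 fold change of PEox against vehicle (horizontal axis) of the tested genes in the 10-gene set and in 6 lists of related genes, with called genes in red (higher) or blue (lower) and the list median as a black line. The 4 hypusination genes have a median of -0.43. That of the 5 arginine uptake genes, -0.64, is the value of Slc7a1, and 3 of them were not called. Each list except arginine uptake has called genes on both sides of 0.

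The genes whose profile over the 6 libraries was nearest to that of Arg1 were sought among 9824 named genes of at least 5 CPM, by the root mean square difference of log2 CPM after centring each gene on its mean. They were Il22, the interleukin 22 gene (difference 0.041), Cd74, the MHC class II invariant chain gene (0.0453), the ribosomal protein gene Rps18 (0.0472), Tspan4 (0.0489) and Sh3bgrl3 (0.0494). Il22 had a log2 fold change of -1.42 and Cd74 of -1.34. For Odc1 the nearest were Gimap1 (0.0204), the respiratory chain gene Cox5b (0.0223), N6amt1 (0.0227), Tma7 (0.027) and Nfkbia, the NF-kB inhibitor gene (0.0319). With 6 libraries in 2 groups, this likeness mostly reflects a fold change of the same size, and all points share their libraries.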

How the data were processed

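RNA-seq counts of 6 ILC3 libraries, 3 vehicle and 3 PEox, were analysed from 1 table. Per the labels' protocols, paired reads were cleaned with fastp and aligned with HISAT2 2.0.5, and edgeR 3.22.5 is listed in the submitters' processing notes. Counter, build, annotation and strandedness are not given in the sources used here. Reads of copies and of overlapping genes may therefore be shared. The deposited values were raw counts per Ensembl identifier, and 0 columns were left unused. Symbols came from a table that named 55141 of 55401 identifiers, and the others held 0.015% to 0.0191% of counts.

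In R 4.3.3, edgeR 4.0.16 kept 18253 genes (filterByExpr), scaled by TMM factors of 0.951 to 1.05 and tested group by the robust quasi-likelihood test. Standard errors are the log2 fold change over the root of F. Every pair of libraries differed beyond sampling noise, and each counts as 1 replicate. Median and longest lengths came from the protein-coding transcripts of GENCODE M21. The comparison of PEox with vehicle was tested on simulated data of 17396 genes with 200 changed: recovery was 63% at a log2 change of 1 and 88% at 2, and 10 of 17196 unchanged genes were called. The changed genes all had a mean above 1 CPM and were split evenly between higher and lower. Recovery of lower genes, and a change as wide as the 37.1% of genes called in the data, were not simulated. Members, lists and tests were chosen with earlier results of these data known. Other pathway genes are named if called with a mean of at least 5 CPM in either group, plus Slc7a1, Nos2, Smox, Myc and Eif5a. Alternatives were RLE and library size scaling, other filters, a replicate block, DESeq2 1.42.0, limma-voom 3.58.1, leaving out each library and removal of length and GC trends (loess, span 0.5). The trend with longest transcripts and the adding of copies were chosen after seeing the data. Planned protein comparisons were not made, and 2 genes of the lists are not reported here.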

Additional observations from a re-analysis of the deposited data

How the results depend on the processing

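Over 159 refits of the 10 genes under other settings or without a library, 153 kept direction and side of the threshold. With the length and GC trend removed Oaz1 was no longer called (-0.11, and -0.061 with the longest transcript), Oaz2 turned to 0.093 and 0.12, Dohh to 0.16 and 0.16, Slc7a6 to 0.049 and Oat to 0.0062 (these last with the median length). The median of all genes stood at 0.14 with either length. Relative to it Oaz2 was at -0.048 and -0.026, and Slc7a6 and Oat lay under it. The cause was not tested. Library size scaling turned Sms to 0.034, which is -0.10 relative to the median of all genes, and leaving out PEox library 3 turned it to 0.069. Without each library in turn Sms ran from -0.20 to 0.07, Arg2 from 0.19 to 1.09, and the count of called genes from 5282 to 6577 against 6775 with all. Of 462 refits of other named genes, 391 kept direction and side, 67 lost the call and 4 turned. The same replicate numbers did not mark shared deviations (correlations of -0.00583 to 0.0135). With the replicate number as a block 3018 genes were higher and 3141 lower, and among the named genes Atp13a2, Dohh, Oat and Mnt lost their call (adjusted p = 0.057, 0.0527, 0.0709 and 0.0578). Arg2 had 26 to 89 counts a library, with spread within each group.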
